A study of Saccharomyces cerevisiae with 12 samples.

Results

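The 132 genes examined here encode the proteins of the cytosolic ribosome of Saccharomyces cerevisiae. They were taken as every row, of 6775 in the table of normalised counts, whose gene name is RPL (large subunit, 76 genes) or RPS (small subunit, 56 genes) followed by a number and at most the letter A or B. The rule used names alone and no measured value, but the set was chosen with earlier results of these data known. Of these genes, 114 form 57 pairs of an A and a B copy and 18 are single, so that they stand for 75 proteins. RNA came from log phase cells of 1 haploid strain, Cyc8-AA in the HHY221 background, of mating type a (Mata), with the alleles CYC8-FRB::HIS3 and RPL13A2xFKBP12::loxP, the tor1-1 mutation and the deletion fpr1::loxP-LEU2-loxP, grown in YPD at 30 °C. In this anchor-away strain rapamycin joins the FRB tag on Cyc8p, a subunit of the Tup1-Cyc8 co-repressor, to the FKBP12 tag on a ribosomal protein, and the ribosomal protein carries Cyc8p out of the nucleus. All samples share the tor1-1 allele and the fpr1 deletion, which make growth resistant to rapamycin, and all share the tag on RPL13A, 1 of the 132 genes.

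There were 4 groups of 3 samples, each taken after 4 h of treatment. In the Flo+ Cyc8-AA experiment, +Rap cells received rapamycin at 1 µg/ml and flocculated, and -Rap cells received its solvent alone. The study's methods say that cultures were divided into a depleted and a control part, and the labels call the 3 numbers biological replicates, but no source says that samples of the same number are parts of the same culture. In the Flo- Cyc8-AA experiment, +Rap+Man and -Rap+Man cells received in addition 0.25 M mannose, a sugar that keeps flocculin proteins from binding the walls of neighbouring cells, so that the depleted cells stayed dispersed. The Flo+ libraries were sequenced as paired-end reads and the Flo- libraries as single-end reads at another time, and therefore levels cannot be compared between the experiments without this difference. None of the samples analysed was a strain without the FRB tag given rapamycin, so that depletion of Cyc8p and other effects of rapamycin cannot be told apart. The libraries held between 26125728 and 51088194 counts each, and every one of the 132 genes had at least 4 counts in every sample. FPR1, deleted in the strain, had 0 to 5 counts per sample.

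The ribosomal protein genes are among the most highly transcribed genes of growing yeast. Their promoters are bound by Rap1p, which recruits Fhl1p and the co-activator Ifh1p, and many also bind Hmo1p. When nutrients run short or the TOR kinase is inhibited, Crf1p can displace Ifh1p from Fhl1p, and the genes fall together. Most of the proteins are encoded by a pair of paralogs left from an ancient genome duplication, whose products are nearly or fully identical but whose promoters and introns differ.

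All 132 genes were found by systematic name in the RefSeq annotation of the S288c assembly R64, which is credited for every position and sequence given here. The authors' release of the genome is not stated beyond S288c from ENSEMBL. The coding lengths run from 78 to 1164 bases with a median of 435. Introns interrupt 88 of the genes and 44 have none, 3 introns hold a small nucleolar RNA gene (in RPL7A, RPL7B and RPS22B), and no annotated gene overlaps a member on the opposite strand. The 2 copies of a pair are identical over 78.9% to 99.4% of their coding bases, with a median of 93.2%, and 21 of the 57 pairs encode the same protein. How reads that fit more than 1 gene were counted is not given in the sources used here, so that for copies such as RPL1A and RPL1B, which differ at 4 coding bases, or RPL41A and RPL41B, the split between the copies is uncertain.

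The window from 500 to 101 bases before the first coding base was searched on both strands for 2 spellings of the Rap1 site, ACCCATACA and ACCCGTACA. A match was present at 32 of the 132 genes (24.2%), against 51 of 5887 other protein-coding genes (0.866%) and 83 of all 6019 (1.38%). Searching for exact letters finds only part of the sites a factor can bind, and a match is a description of the sequence. The matches at 5 genes described below are shown on the strand of the gene, with the site in capitals. The tagged gene RPL13A and its copy RPL13B each have a pair of sites that face away from each other. These sites also lie in the windows of RPS16B and RPS16A, members that run the other way, and count for both genes. RPL14A and RPL2B are 2 of the 4 genes whose response differed between the experiments, and RPL6B fell in both.
RPL13A chrIV:308121-308236: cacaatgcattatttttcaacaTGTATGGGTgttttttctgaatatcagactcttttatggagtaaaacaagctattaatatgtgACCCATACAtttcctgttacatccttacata
RPL13B chrXIII:551508-551651: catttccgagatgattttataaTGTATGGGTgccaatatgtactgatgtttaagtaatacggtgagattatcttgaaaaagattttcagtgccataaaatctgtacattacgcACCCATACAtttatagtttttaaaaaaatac
RPL14A chrXI:431474-431526: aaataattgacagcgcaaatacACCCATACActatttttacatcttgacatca
RPL2B chrIX:316332-316384: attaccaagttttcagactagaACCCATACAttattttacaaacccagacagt
RPL6B chrXII:1028393-1028445: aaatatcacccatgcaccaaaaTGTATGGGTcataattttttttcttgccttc
The site in RPL14A begins 410 bases before the first coding base, that in RPL2B 414 bases and that in RPL6B 439 bases.

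Levels were compared between genes as normalised counts per kilobase of coding length. The median over the 132 genes was 35247 in +Rap and 47511 in -Rap cells, and the level ran from 61.0 to 221514 in +Rap and from 98.0 to 298408 in -Rap cells. The highest of the Flo+ experiment was RPS31, a small subunit protein made as a fusion with ubiquitin, at 221514 in +Rap and 298408 in -Rap cells. In the Flo- experiment the level ran from 1922 to 392089 in +Rap+Man and from 2143 to 373430 in -Rap+Man cells, and the ranks given here are those of the Flo+ experiment alone. RPS12 was next in -Rap cells, with 154769 in +Rap and 207496 in -Rap cells. The order of the 132 levels in +Rap and -Rap cells was nearly the same (Spearman's rho 0.989 across genes, which are not independent replicates). The coefficient of variation between replicates had a median over the 132 genes of 6.74% in +Rap, 8.99% in -Rap, 12.3% in +Rap+Man and 16.8% in -Rap+Man samples. Its highest values in these groups were 41.3%, 46.0%, 59.2% and 52.5%.

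The 3 lowest levels per kilobase in -Rap cells were those of RPL39, RPL43A and RPL22A, which had 98.0, 181 and 617, and all 3 were far higher in the other experiment. RPL39, a small protein of the exit tunnel, had 14197 to 24332 raw counts in the 6 Flo- libraries, against 4 to 17 in the 6 Flo+ libraries. RPL43A had 22386 to 52885 raw counts in the Flo- libraries, against 15 to 60 in the Flo+ libraries. RPL22A had 13062 to 37498 in the Flo- libraries, against 100 to 270 in the Flo+ libraries. Over all 132 genes, 9 were more than 10 times higher in -Rap+Man than in -Rap cells by normalised counts. These were RPL22A, RPL28, RPL33A, RPL36B, RPL39, RPL41A, RPL41B, RPL43A and RPS28B, chosen for this difference after their values were seen. The order of levels per kilobase was less alike between -Rap+Man and -Rap cells (Spearman's rho 0.448 across genes).

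Open reading frames on the other strand moved the opposite way beside some of these genes. BUD19, numbered next to RPL39 on the other strand, had 4 to 10 raw counts in the Flo- libraries, against 3409 to 5792 in the Flo+ libraries. OPI11, numbered next to RPL43A, had 197 to 450 in the Flo- libraries, against 2624 to 3950 in the Flo+ libraries. BUD28, next to RPL22A, had 45 to 133 in the Flo- libraries, against 263 to 386 in the Flo+ libraries. For YPL142C, next to RPL33A, these were 105 to 168 and 979 to 1492. These neighbours were chosen after their values were seen. In all, 24 of the 132 genes had such a neighbour that the RefSeq annotation does not list, and 15 of the 24 were more than 2 times higher in -Rap+Man than in -Rap cells, against 16 of the other 108. The neighbours did not all follow this pattern, and many were higher in the Flo- libraries. YPL250W-A, numbered next to RPL36B, had 132 to 339 raw counts in the Flo- libraries and 0 in every Flo+ library. YGL102C, next to RPL28, had 742 to 1320 against 199 to 358. YDR417C, next to RPL12B, had 116 to 243 against 6 to 15, and YGL123C-A, next to RPS2, had 958 to 1612 against 0. BUD19, OPI11, BUD28 and YPL142C are therefore examples and do not stand for all 24. Both kinds of library were strand-specific, but the strand setting of the counting is not given in the sources used here, and its part in these levels was not tested. Without the 9 genes, 77 of 123 genes fell in +Rap cells and 11 fell and 7 rose in +Rap+Man cells.

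As a whole, the 132 genes took up a smaller share of the counts after rapamycin. They held 8.20%, 7.05% and 7.40% of all counts in the +Rap samples, against 12.9%, 12.9% and 11.8% in the -Rap samples, or 7.55% ± 0.59 and 12.6% ± 0.64 (SD, n = 3 each). In the Flo- experiment the shares were 8.0%, 9.49% and 8.71% in +Rap+Man samples and 11.8%, 14.9% and 14.2% in -Rap+Man samples, or 8.73% ± 0.74 and 13.6% ± 1.64 (SD, n = 3 each). In neither experiment did the groups overlap. The share also falls when other genes take up more counts, and with the 1048 genes that rose at the study's thresholds in either depletion left out of the total it was 11.9% ± 0.67 in +Rap and 14.4% ± 0.52 in -Rap samples, and 13.8% ± 1.15 in +Rap+Man and 15.3% ± 1.73 in -Rap+Man samples (SD, n = 3 each). With those genes left out the +Rap samples still lay below the -Rap samples, and the +Rap+Man and -Rap+Man samples overlapped. In bulk samples, fewer transcripts per cell of these genes and more of others cannot be told apart, nor can fewer cells of one state and less RNA per cell.

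**Figure D1:**
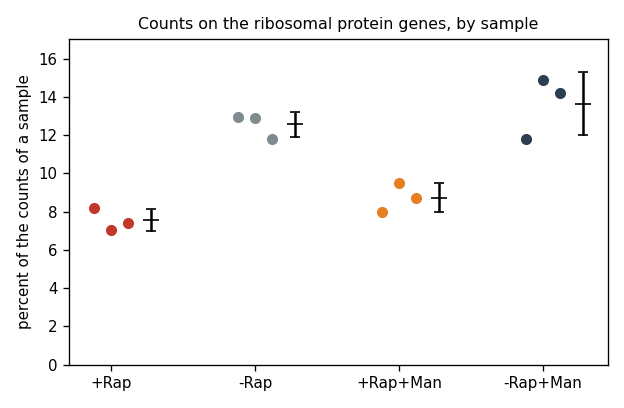
Percent of the counts of each sample that fell on the 132 ribosomal protein genes (vertical axis) in the 4 groups, 3 samples each as points, with the mean and SD beside them. The +Rap samples lie between 7.05% and 8.20%, all below the -Rap samples, and the +Rap+Man samples between 8.0% and 9.49%, all below the -Rap+Man samples.

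For the gene by gene comparison, counts were scaled by trimmed mean of M-values (TMM) factors, which set the bulk of genes level between samples, and log2 fold changes of normalised counts with 2 added were tested with limma and adjusted by the Benjamini-Hochberg method over all genes left after low counts were removed. All 132 genes were kept. A gene is called higher or lower where its adjusted p is 0.05 or less, and calls at the stricter thresholds of the study (adjusted p of 0.01 or less with a log2 fold change past 1 or -1) are given beside it.

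In flocculating cells the ribosomal protein genes fell together and by a modest amount. Of the 132 genes, 78 were lower in +Rap than in -Rap cells (59.1%) and 0 were higher, where over all 6100 genes tested 20.6% were lower and 22.8% were higher. The log2 fold change was negative for 128 of them, with a median of -0.41, a middle range from -0.53 to -0.26 and extremes of -0.93 and 0.39, whereas the median over all genes was -0.02. At the stricter thresholds 0 members were called by limma, with 2.13% of all genes lower and 11.0% higher. At an unadjusted p under 0.05 by limma 90 members were lower and 1 higher. That count was made for the members alone, and no share of all genes stands beside it. In 93 genes every +Rap sample was below every -Rap sample (27.9% of all genes) and in 1 every +Rap sample was above (28.4% of all genes). The direction was the same under every scaling tried, with a median of -0.41 with median-ratio factors, -0.43 with TMM factors computed without the 132 genes and -0.75 with total counts, where the median of all genes moved to -0.36. Relative to that of all genes, the median of the members was -0.39 under each of these scalings, and the number of members lower was 78, 78 and 121, the last where 46.7% of all genes were lower.

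The 6 genes that fell furthest were RPL18B, RPL10, RPL9A, RPS7B, RPL31B and RPS25B. RPL9A (chrVII:227754-228329, minus strand), which encodes a protein near the base of the stalk of the large subunit, had 25409, 22340.5 and 24217 normalised counts in +Rap samples, against 42649, 43723 and 42883 in -Rap samples, a log2 fold change of -0.85 ± 0.10 (SE, adjusted p = 5.2e-04). RPL18B (chrXIV:63570-64562, minus strand) had 1623, 1585 and 1571 in +Rap samples, against 3485, 3636 and 2196 in -Rap samples, a log2 fold change of -0.93 ± 0.19 (SE, adjusted p = 0.0059). In both genes the groups stood apart, but for RPL18B the third -Rap sample lay well below the others.

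RPS7B, which encodes a small subunit protein (chrXIV:443398-444315, minus strand), had 8137, 7769.9 and 7975 normalised counts in +Rap samples, against 16954, 13638 and 11897 in -Rap samples, a log2 fold change of -0.82 ± 0.14 (SE, adjusted p = 0.0029). RPL10, whose protein joins the large subunit late in its assembly and is needed for the subunits to meet (chrXII:282927-283592, plus strand), had 6244, 5357 and 6028 in +Rap samples, against 8884, 11669 and 11377 in -Rap samples, a log2 fold change of -0.85 ± 0.14 (SE, adjusted p = 0.0021). The groups of both genes were separate, and RPL10 had about 9.25 times more normalised counts in -Rap+Man than in -Rap samples. YLR076C, numbered next to RPL10 on the other strand, had 1217 to 2493 raw counts in the Flo+ libraries, against 260 to 661 in the Flo- libraries. It was itself lower in +Rap cells (log2 fold change -0.50 ± 0.10, SE, adjusted p = 0.0051 by limma). The part of the strand setting in these levels was not tested. RPL31B and RPS25B fell by nearly the same amount, by 0.78 ± 0.13 (SE, adjusted p = 0.0024) and 0.77 ± 0.13 (SE, adjusted p = 0.0025) on the log2 scale, with no overlap of the groups.

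One gene stood apart from the rest. RPS22B (chrXII:856442-857317, plus strand), the weaker copy of a small subunit pair, whose intron holds a small nucleolar RNA gene, had 5442, 4965 and 4432 normalised counts in +Rap samples, against 3932, 4199 and 3252 in -Rap samples. It was the gene in which every +Rap sample was above every -Rap sample, with a log2 fold change of 0.39 ± 0.14 (SE, adjusted p = 0.0501), just short of the call, and 0.05 with total counts. With median-ratio factors and without the filter it was the 1 gene called higher.

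The tagged gene fell with the others. RPL13A (chrIV:308424-309388, plus strand), the anchor of this strain, had 2308, 2668 and 2459 normalised counts in +Rap samples, against 4089.8, 4067 and 3155 in -Rap samples, a log2 fold change of -0.60 ± 0.13 (SE, adjusted p = 0.0089). RPL13B (chrXIII:550206-551207, minus strand), its untagged copy, had 34914, 31056 and 32860.1 in +Rap samples, against 42177, 44502 and 42994 in -Rap samples, a log2 fold change of -0.39 ± 0.10 (SE, adjusted p = 0.018). Neither gene showed overlap of the groups. The tagged copy supplied 6.20%, 7.91% and 6.96% of the counts of the pair in +Rap samples and 8.84%, 8.37% and 6.84% in -Rap samples, and this share overlapped. The call of RPL13B was lost when the second -Rap, the second +Rap or the third +Rap sample was left out.

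**Figure D2:**
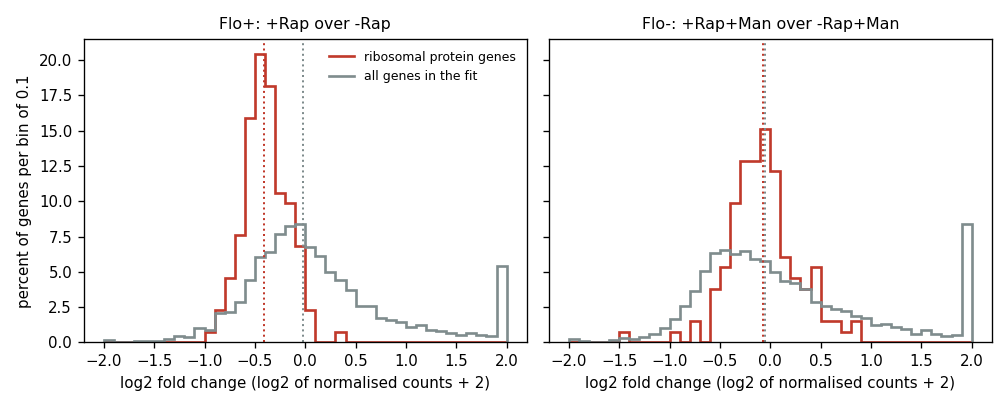
Percent of genes (vertical axis) by log2 fold change in bins of 0.1 (horizontal axis, values past 2 in size placed in the last bin) for the 132 ribosomal protein genes and for all genes tested, in the Flo+ and the Flo- experiment. Dotted lines mark the medians, which for the ribosomal protein genes are -0.41 in the Flo+ experiment and -0.07 in the Flo- experiment.

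The fall was spread over both subunits and both kinds of copy. The median log2 fold change was -0.40 in 76 large subunit genes, 42 of which were lower, and -0.42 in 56 small subunit genes, 36 of which were lower. It was -0.42 in the 57 A copies and -0.40 in the 57 B copies, and -0.40 in the 18 single genes. Genes with introns had a median of -0.43 and genes without introns -0.40, and genes with a match to the Rap1 site had -0.40 against -0.41 without one. Both copies were negative in 54 of the 57 pairs. The shortest genes had the smallest median, and 2 of 19 genes with under 300 coding bases were lower (10.5%, median -0.22), against 23 of 31 with 600 or more (74.2%, median -0.45). Of these short genes, 12 were more than 2 times higher in -Rap+Man than in -Rap cells, as were 8 of the 31 long ones.

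The number of members called depended on single libraries. Between 41 and 95 members were lower when 1 sample was left out, and 0 or 1 were higher. The fewest (41) came without the third +Rap sample, where 747 of all 6123 genes were lower. There were 51 without the second -Rap sample (997 of all 6125) and the most (95) without the third -Rap sample (1730 of all 6127). In the third -Rap sample 87 of the 132 genes had the lowest normalised count of the 3 -Rap samples, a count not made over all genes. The median stayed between -0.46 and -0.37 in these fits.

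In dispersed cells the ribosomal protein genes had a median change close to that of all genes, by an amount that depended on single samples. Of the 132 genes, 11 were lower in +Rap+Man than in -Rap+Man cells (8.33%) and 7 were higher (5.30%), where 26.7% and 25.4% of all 6325 genes tested were lower and higher. The log2 fold change had a median of -0.07, against -0.05 over all genes, and was negative for 83 genes. At the stricter thresholds 1 gene, RPS9A, was lower and 0 were higher by limma, with 2.66% and 14.7% of all genes called. At an unadjusted p under 0.05 by limma 19 members were lower and 13 higher, again without a share of all genes at that cutoff. In 28 genes every +Rap+Man sample was below every -Rap+Man sample (33.8% of all genes) and in 12 every one was above (28.1% of all genes). The median was -0.03 with median-ratio factors, -0.11 with TMM factors computed without the 132 genes and -0.68 with total counts, where the median of all genes moved to -0.65. Relative to that of all genes the median lay between -0.03 and -0.02 under these scalings. With 1 sample left out the median ran from -0.23 to -0.0038. It was -0.22 without the first -Rap+Man and -0.23 without the second +Rap+Man sample, which is -0.16 and -0.14 relative to all genes, and -0.0038, or 0.04 above all genes, without the third -Rap+Man sample.

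The fit that took same-numbered Flo- samples as pairs, unlike the main fit, called 17 genes lower and 10 higher, where 2028 and 1831 of all 6325 genes were. Replicate 1 was the lowest of its group for 82 of the 132 genes in -Rap+Man samples and for 49 in +Rap+Man samples. For 47 it was the lowest in both groups. These counts were made for the members alone and not over all genes. RPS31, for example, had 67742, 145568 and 96836 normalised counts in +Rap+Man samples, against 64165, 145609.6 and 142177 in -Rap+Man samples. Leaving out the first -Rap+Man sample gave 21 genes lower and 15 higher, where 1783 and 1767 of all 6366 genes were. Without the third -Rap+Man sample 7 were lower and 5 higher (1487 and 1513 of all 6355). Without the first +Rap+Man sample 7 were lower and 2 higher (1531 and 1363 of all 6368). Without the second 19 were lower and 1 was higher (1486 and 1420 of all 6367), and without the third 6 were lower and 5 higher (1522 and 1427 of all 6365).

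Some genes moved well past the rest. RPS9A (chrXVI:404950-406044, plus strand), the weaker copy of the gene for a small subunit protein that helps to set the accuracy of decoding, had 3019, 3295 and 3797 normalised counts in +Rap+Man samples, against 10693, 8186 and 8773 in -Rap+Man samples, a log2 fold change of -1.42 ± 0.16 (SE, adjusted p = 9.2e-05). In flocculating cells RPS9A had 3632, 3186 and 3319 in +Rap samples, against 7005, 6831 and 3325 in -Rap samples, a log2 fold change of -0.68 ± 0.27 (SE, adjusted p = 0.072), and here the third -Rap sample was as low as the +Rap samples. The groups were separate with mannose and overlapped without it.

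The other large falls were those of RPS7B, RPL13A, RPL9A, RPL31B and RPL6B. RPS7B had 3950.1, 4251 and 3611 normalised counts in +Rap+Man samples, against 8562, 7108 and 7031 in -Rap+Man samples, a log2 fold change of -0.91 ± 0.14 (SE, adjusted p = 6.0e-04). The tagged RPL13A had 1911, 2556 and 1560.1 in +Rap+Man samples, against 3237, 3593 and 3209 in -Rap+Man samples, a log2 fold change of -0.74 ± 0.18 (SE, adjusted p = 0.0072). These groups did not overlap, and for RPL13B, with 29813, 34357 and 28793 in +Rap+Man and 34372, 38134 and 38298 in -Rap+Man samples, they were also separate although the log2 fold change of -0.23 ± 0.14 (SE, adjusted p = 0.19) did not pass. RPL31B was at -0.55 ± 0.12 (SE, adjusted p = 0.0045) and RPL6B (chrXII:1028854-1029768, plus strand) at -0.54 ± 0.16 (SE, adjusted p = 0.017) on the log2 scale. RPL9A had 18920.5, 30057 and 23966 in +Rap+Man samples, against 27198, 47834 and 47889.7 in -Rap+Man samples, a log2 fold change of -0.70 ± 0.25 (SE, adjusted p = 0.039), with overlap of the groups, and its call was lost when the first +Rap+Man, the third +Rap+Man, the second -Rap+Man or the third -Rap+Man sample was left out. In all, 9 genes were lower in both experiments, among them RPL9A, RPL13A, RPL31B, RPL6B, RPS7B and RPS25B.

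The 7 genes that rose were RPS22B, RPL9B, RPS28A, RPS27B, RPL4B, RPS29B and RPS30A. RPL9B (chrXIV:499681-500256, plus strand), the weaker copy of the RPL9 pair, had 18469.7, 28184 and 19262 normalised counts in +Rap+Man samples, against 8886, 14539 and 14707 in -Rap+Man samples, a log2 fold change of 0.83 ± 0.23 (SE, adjusted p = 0.014). RPS28A (chrXV:648804-649007, minus strand), a short small subunit gene, had 43837, 46691 and 39158 in +Rap+Man samples, against 19308, 31088 and 30776 in -Rap+Man samples, a log2 fold change of 0.73 ± 0.19 (SE, adjusted p = 0.011). RPS22B had 2649, 4123 and 2693 in +Rap+Man samples, against 1346, 1656 and 2149 in -Rap+Man samples, a log2 fold change of 0.90 ± 0.21 (SE, adjusted p = 0.0071). In these 3 genes every depleted sample was above every control sample.

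RPS27B was at 0.65 ± 0.20 (SE, adjusted p = 0.023), RPL4B, whose protein lines the exit tunnel, at 0.58 ± 0.20 (SE, adjusted p = 0.037) and RPS29B at 0.50 ± 0.14 (SE, adjusted p = 0.016) on the log2 scale. With total counts as the scaling none of the 6 rises given with values was called. RPS22B was then at 0.29, RPL9B at 0.22, RPS28A at 0.12 and RPS27B at 0.039, and RPL4B and RPS29B turned to -0.027 and -0.11, so that all 6 were called higher relative to the bulk of genes alone. The call of RPL4B was also lost with same-numbered samples as pairs (adjusted p = 0.054). The calls also rested on single samples. Without the second +Rap+Man sample those of RPL9B, RPS28A, RPS27B, RPL4B and RPS29B were lost, without the first +Rap+Man sample those of RPS28A, RPS27B, RPL4B and RPS29B, without the third +Rap+Man sample that of RPS27B, and without the second -Rap+Man sample those of RPL4B and RPS29B, and without the third -Rap+Man sample that of RPL4B.

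**Figure D3:**
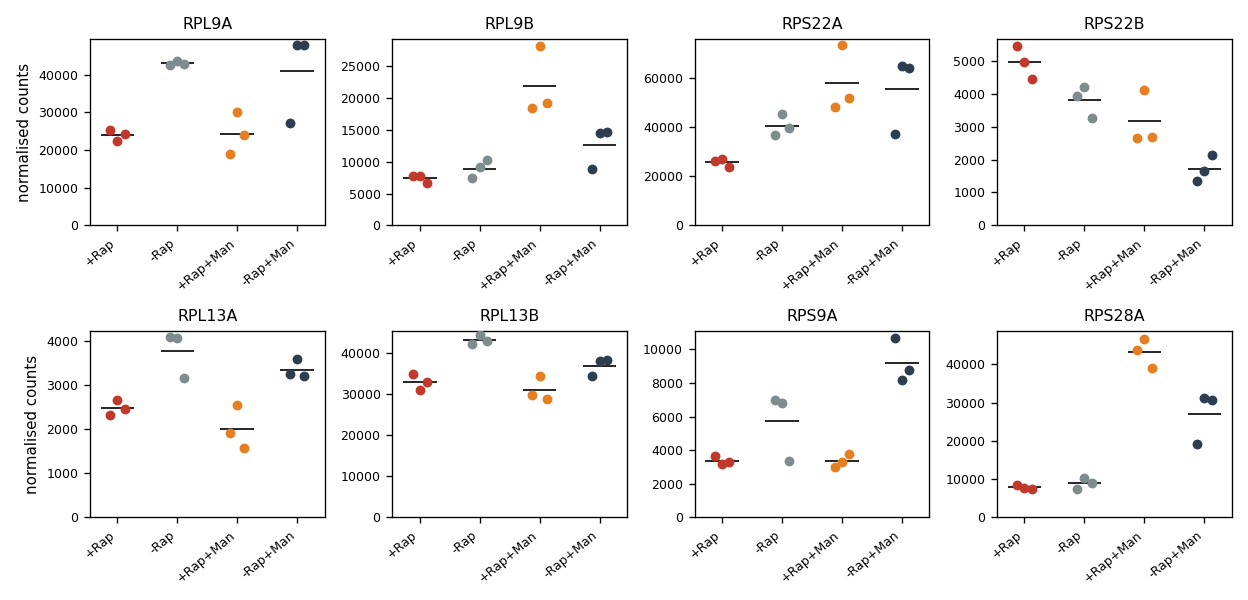
Normalised counts (vertical axes, each from 0) of 8 ribosomal protein genes in the 12 samples, as points, with the mean of each group of 3 as a line. RPL9A is lower in +Rap than in every -Rap sample, RPL9B and RPS28A are higher in +Rap+Man than in every -Rap+Man sample, and RPS9A is lower in +Rap+Man than in every -Rap+Man sample.

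The ratios of the experiments were compared directly, as the change with mannose minus the change without it, over 6403 genes and with all 12 samples in 1 model. The ratio was higher with mannose for 116 of the 132 genes, and the median of these log2 differences was 0.29 for the members, against -0.01 over all genes. The median of the members was 0.35 with median-ratio factors, 0.30 with TMM factors computed without the 132 genes and 0.05 with total counts, where the median of all genes was -0.26. With 1 sample left out it ran from 0.17 to 0.37, with 0.17 without the first -Rap+Man and 0.18 without the second +Rap+Man sample. Single genes seldom passed the test, with 4 higher (3.03%) and 0 lower, against 6.87% and 7.17% of all genes tested, and 0 passed at the stricter thresholds, against 2.61% and 1.16%. At an unadjusted p under 0.05 by limma 25 members were higher and 1 lower, a count made for the members alone and without a share of all genes. With same-numbered samples as a block 10 were called higher, and median-ratio factors gave 8, where 575 and 503 of all 6403 genes were called higher. The experiments differ in run and read type as well as in mannose and flocculation, and these cannot be told apart.

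The 4 genes were RPL9B, RPL14A, RPS28A and RPL2B. RPL9B had 7780.1, 7697 and 6746 normalised counts in +Rap and 7415, 9118 and 10322 in -Rap samples, where the groups overlapped, and with the rise in +Rap+Man cells its difference in ratios was 1.06 ± 0.30 (SE, adjusted p = 0.034). RPS28A had 8447, 7546 and 7416 in +Rap and 7451, 10327 and 8935 in -Rap samples, also overlapping, and its difference was 0.89 ± 0.26 (SE, adjusted p = 0.038).

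RPL14A and RPL2B had log2 fold changes of opposite sign in the experiments. RPL14A (chrXI:431906-432720, plus strand) had 23016, 26824 and 21703 normalised counts in +Rap+Man samples, against 10992, 21308 and 19577 in -Rap+Man samples, and 7074, 6780.1 and 5957 in +Rap samples, against 8043, 10011 and 8743 in -Rap samples. Its log2 fold changes were 0.54 ± 0.23 (SE, adjusted p = 0.074) with and -0.43 ± 0.13 (SE, adjusted p = 0.025) without mannose, and the difference was 0.95 ± 0.29 (SE, adjusted p = 0.049). RPL2B (chrIX:316768-317932, plus strand), whose protein lies at the peptidyl transferase centre, had 146236, 179778 and 146226 in +Rap+Man samples, against 103056, 121550.0 and 129000.3 in -Rap+Man samples, and 70701, 74206 and 65646 in +Rap samples, against 89889.8, 94394 and 84213 in -Rap samples. Its log2 fold changes were 0.44 ± 0.18 (SE, adjusted p = 0.068) with and -0.35 ± 0.11 (SE, adjusted p = 0.035) without mannose, and the difference was 0.77 ± 0.20 (SE, adjusted p = 0.024). In both genes every +Rap+Man sample was above every -Rap+Man sample and every +Rap sample below every -Rap sample. The fall without mannose was called, and the change with mannose was not.

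These 4 calls were narrow. Over the 12 fits that each left out 1 sample the number of members called higher ran from 0 to 7, with 0 when the second -Rap, the first +Rap, the third +Rap or the second +Rap+Man sample was left out, 1 without the second +Rap, 2 without the first +Rap+Man, and 7 without the third -Rap or the first -Rap+Man sample. RPL9B was called in 5, RPL14A in 3, RPS28A in 4 and RPL2B in 8 of them. The differences kept their sign, between 0.82 and 1.19 for RPL9B, 0.65 and 1.13 for RPL14A, 0.66 and 1.01 for RPS28A, and 0.67 and 0.84 for RPL2B. With total counts RPL2B was still called, and RPL9B (0.82, adjusted p = 0.062), RPL14A (0.71, adjusted p = 0.11) and RPS28A (0.64, adjusted p = 0.096) were not. RPL18B, the gene that fell furthest in +Rap cells, was at -0.17 ± 0.14 (SE, adjusted p = 0.32) in +Rap+Man cells, with a difference of 0.73 ± 0.24 (SE, adjusted p = 0.063). RPS9A, in the other direction, had a difference of -0.76 ± 0.33 (SE, adjusted p = 0.14).

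**Figure D4:**
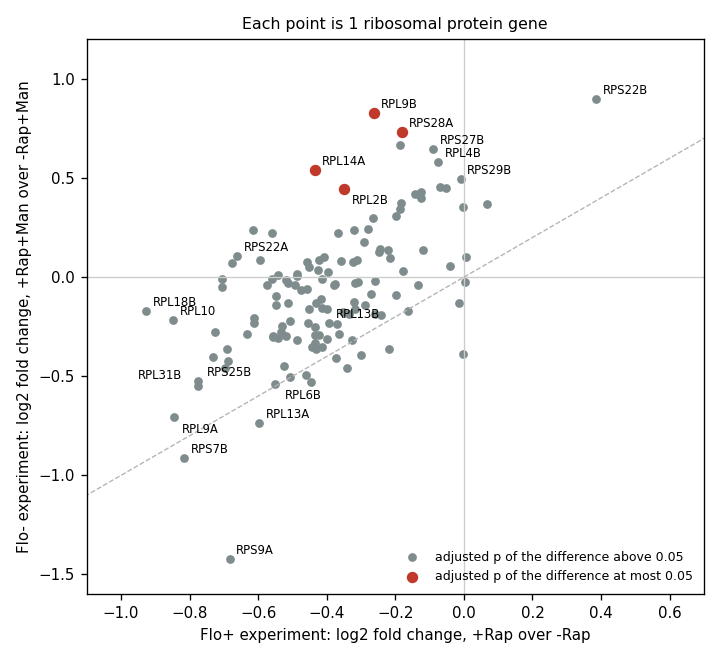
Log2 fold change of each of the 132 ribosomal protein genes in the Flo+ experiment, +Rap over -Rap (horizontal axis), and in the Flo- experiment, +Rap+Man over -Rap+Man (vertical axis), with the dashed line where the values are equal. RPL9B, RPL14A, RPS28A and RPL2B, whose difference passed, are in red, 116 genes had a positive difference, and RPS22B is positive on both axes.

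The paralog pairs allow a comparison that does not depend on how samples were scaled, since the ratio of the A to the B copy is taken within a sample. The design took all pairs in the table whose names differ in a final A or B, of which 62 passed the filter and 57 are ribosomal protein pairs, so that adjusting over them is close to adjusting over the list. For the values given here the ratios were therefore adjusted over 459 to 480 pairs of reciprocal best protein matches of the whole genome, a table added after the data were seen. Over this genome-wide set the ratio changed in 12 of 57 ribosomal protein pairs in +Rap against -Rap cells (49.7% of all pairs) and in 14 of 57 in +Rap+Man against -Rap+Man cells (50.4% of all pairs). Among the named pairs 18 and 14 ribosomal protein pairs were called (32.3% and 22.6% of the 62). With same-numbered samples as a block these were 12 and 18, where 14 and 18 of the 62 were called. Among the pairs called over the genome-wide set, 5 were called in both, and in all 5 the ratio changed in the same direction.

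RPL9 had the largest change of ratio with mannose. Its copies are 93.8% identical in coding sequence and differ at 36 of 576 bases. The stretch from coding base 484 to 573 is shown because the split of reads between the copies rests on such bases, with the 11 at which they differ in capitals.
RPL9A chrVII:227757-227846: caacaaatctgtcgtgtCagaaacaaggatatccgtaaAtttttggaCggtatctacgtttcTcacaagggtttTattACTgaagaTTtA
RPL9B chrXIV:500164-500253: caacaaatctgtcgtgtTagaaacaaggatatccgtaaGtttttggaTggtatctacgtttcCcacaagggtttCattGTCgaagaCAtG
RPL9A supplied 50.6%, 51.6% and 55.4% of the counts of the pair in +Rap+Man samples, against 75.4%, 76.7% and 76.5% in -Rap+Man samples, a change of the log2 A to B ratio of -1.53 ± 0.12 (SE, adjusted p = 7.8e-05). In the Flo+ experiment it supplied 76.6%, 74.4% and 78.2% in +Rap samples, against 85.2%, 82.7% and 80.6% in -Rap samples, a change of -0.58 ± 0.16 (SE, adjusted p = 0.022). The difference between the experiments was -0.95 ± 0.20 (SE, adjusted p = 0.0093), and RPL9 was the 1 ribosomal protein pair that passed over the genome-wide set, where 14.0% of all pairs did, against 2 (RPL9 and RPL40) over the named pairs, where 3.23% did. Adjusted over the named pairs, as in all such statements on pairs here, the calls with mannose and for the difference held in every fit that left out 1 sample, and that without mannose was lost when the first or the second +Rap sample was left out.

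RPS22 shifted in the same direction in both experiments. RPS22A (chrX:74910-75302, minus strand) supplied 82.8%, 84.4% and 84.4% of the counts of the pair in +Rap samples, against 90.4%, 91.6% and 92.4% in -Rap samples, a change of the log2 ratio of -1.05 ± 0.14 (SE, adjusted p = 0.0014). With mannose it supplied 94.8%, 94.7% and 95.1% in +Rap+Man samples, against 96.5%, 97.5% and 96.8% in -Rap+Man samples, a change of -0.79 ± 0.17 (SE, adjusted p = 0.0078). The share of the minor copy RPS22B was higher in depleted cells of both experiments, with no overlap. RPS22A fell in +Rap cells (log2 fold change -0.66 ± 0.12, SE, adjusted p = 0.0036) and RPS22B rose in +Rap+Man cells. The call with mannose was lost when any +Rap+Man sample or the third -Rap+Man sample was left out.

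In RPL31 and RPS25, in contrast, it was the A copy whose share rose. RPL31A supplied 84.0%, 85.1% and 83.9% in +Rap samples, against 77.8%, 77.9% and 79.2% in -Rap samples, a change of the log2 ratio of 0.58 ± 0.10 (SE, adjusted p = 0.0047), and 61.0%, 58.8% and 59.1% in +Rap+Man samples, against 52.0%, 52.2% and 51.2% in -Rap+Man samples, a change of 0.46 ± 0.10 (SE, adjusted p = 0.0094). RPS25A supplied 64.2%, 66.8% and 65.1% in +Rap samples, against 55.0%, 55.9% and 59.1% in -Rap samples, a change of 0.53 ± 0.11 (SE, adjusted p = 0.0095), and 63.6%, 66.5% and 64.6% in +Rap+Man samples, against 57.3%, 52.3% and 51.8% in -Rap+Man samples, a change of 0.67 ± 0.13 (SE, adjusted p = 0.0054). In both pairs the groups were separate in both experiments and the B copy fell.

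Further pairs moved in 1 experiment or by less. The tagged RPL13A supplied 6.02%, 6.93% and 5.14% of its pair in +Rap+Man samples, against 8.61%, 8.61% and 7.73% in -Rap+Man samples, a change of -0.51 ± 0.17 (SE, adjusted p = 0.045). RPS9A supplied 7.49%, 7.54% and 10.3% in +Rap+Man samples, against 17.8%, 16.2% and 16.0% in -Rap+Man samples, a change of -1.13 ± 0.18 (SE, adjusted p = 0.002). The changes with mannose in RPL2 and RPS27, where the B copy gained, were -0.72 ± 0.15 (SE, adjusted p = 0.007) and -0.69 ± 0.12 (SE, adjusted p = 0.003), and that of RPL2 was lost when the second or the third +Rap+Man sample was left out. RPL40, a pair that like RPS31 is made as a fusion with ubiquitin and whose copies encode the same protein, had an A share of 65.6%, 65.7% and 66.8% in +Rap+Man samples, against 54.9%, 54.6% and 55.4% in -Rap+Man samples. Its change was 0.67 ± 0.10 (SE, adjusted p = 0.0014) with mannose and 0.29 ± 0.09 (SE, adjusted p = 0.035) without it. The difference for RPL40 passed over the named pairs (adjusted p = 0.0058) and not over the genome-wide set (adjusted p = 0.056).

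**Figure D5:**
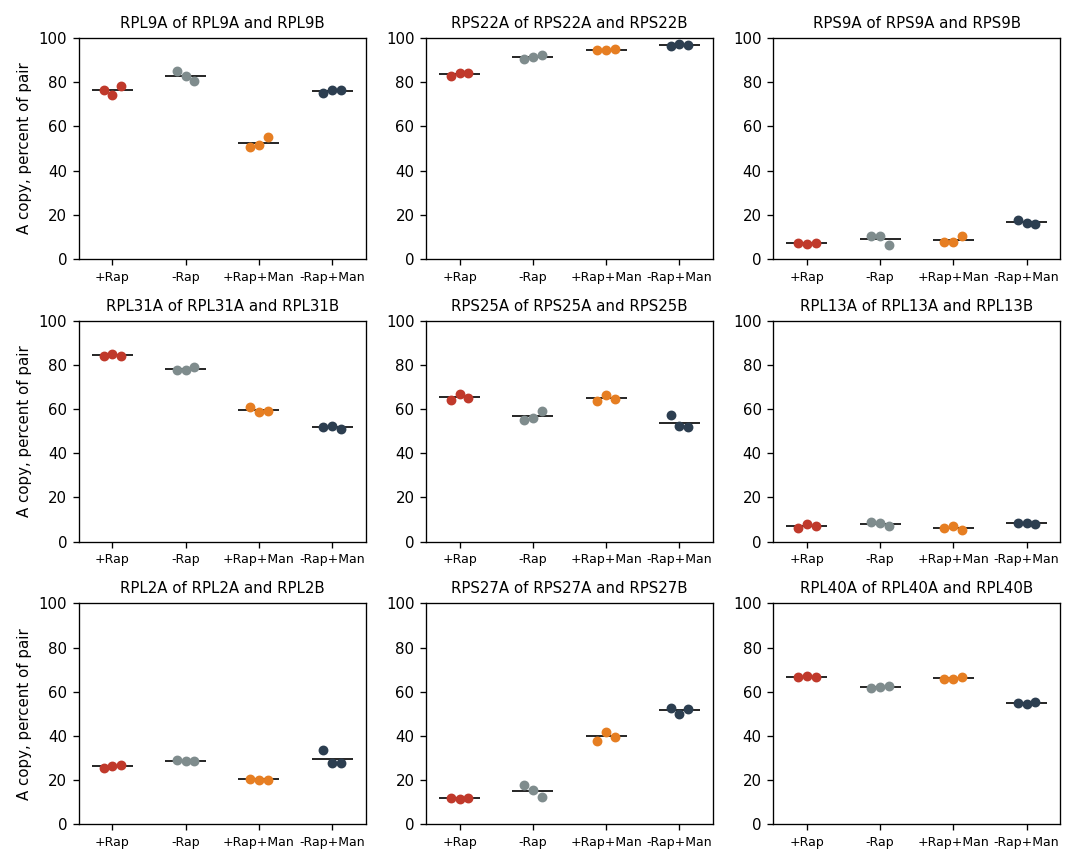
Percent of the counts of a pair that fell on its A copy (vertical axes, 0 to 100) in the 12 samples of the 4 groups, as points, with the mean of each group of 3 as a line, for 9 ribosomal protein pairs. The share of RPL9A lies between 50.6% and 55.4% in +Rap+Man samples and between 75.4% and 76.7% in -Rap+Man samples.

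Genes that act with the ribosomal proteins were followed as 3 lists. Of the 5 P-stalk genes, which encode the acidic proteins that recruit elongation factors to the large subunit, 0 were called in +Rap cells by limma, with log2 fold changes from -0.16 to 0.05. In +Rap+Man cells RPP1B was higher (log2 fold change 0.60 ± 0.17, SE, adjusted p = 0.016) and 0 were lower, and the median of the list was 0.35. Of all genes 20.6% were lower and 22.8% higher in +Rap cells, and 26.7% and 25.4% in +Rap+Man cells. With total counts all 5 were negative in +Rap+Man cells, with a median of -0.26, RPP0 was called lower (-0.40) and RPP1B was at -0.01 and not called, and RPP0 (-0.50), RPP1A (-0.33), RPP2A (-0.39) and RPP2B (-0.50) were called lower in +Rap cells. Under that scaling 58.2% of all genes were lower in +Rap+Man cells, with a median of -0.65, so that the median of the list lay above it. In +Rap cells 46.7% of all genes were lower, with a median of -0.36. The difference in ratios had a median of 0.34 over the list, and 0 of the 5 passed, where 6.87% of all genes were higher and 7.17% lower.

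Of the 10 regulators of ribosomal protein gene transcription, 2 were higher and 1 lower in +Rap cells, and 3 were higher and 5 lower in +Rap+Man cells, where the shares of all genes given above were 22.8% higher and 20.6% lower in +Rap cells and 25.4% higher and 26.7% lower in +Rap+Man cells. With total counts 1 was higher and 7 lower in each experiment, where 46.7% of all genes were lower in +Rap and 58.2% in +Rap+Man cells. CRF1, which encodes the co-repressor of the Fhl1p complex, had 1229.5, 691 and 1479.9 normalised counts in +Rap+Man samples, against 72.8, 79.5 and 109.9 in -Rap+Man samples, and 1755, 1833 and 1642 in +Rap samples, against 657, 803 and 576 in -Rap samples. Its log2 fold changes were 3.64 ± 0.28 (SE, adjusted p = 7.6e-06) with and 1.37 ± 0.14 (SE, adjusted p = 1.8e-04) without mannose, and the difference was 2.25 ± 0.35 (SE, adjusted p = 0.0014).

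RAP1 was at -0.87 ± 0.13 (SE, adjusted p = 5.8e-04) in the Flo- and -0.13 ± 0.13 (SE, adjusted p = 0.43) in the Flo+ experiment, with a difference of -0.77 ± 0.18 (SE, adjusted p = 0.014). FHL1 fell to 1137, 1171 and 1221 normalised counts in +Rap+Man samples, against 2063, 1902 and 1849 in -Rap+Man samples (log2 fold change -0.69 ± 0.12, SE, adjusted p = 0.0016), and IFH1 also fell (log2 fold change -0.55 ± 0.11, SE, adjusted p = 0.0032). HMO1 fell in both, with log2 fold changes of -0.47 ± 0.11 (SE, adjusted p = 0.011) in +Rap and -0.90 ± 0.12 (SE, adjusted p = 3.5e-04) in +Rap+Man cells. SCH9, a kinase downstream of TOR that promotes ribosome production, rose in both, with 0.58 ± 0.19 (SE, adjusted p = 0.037) in +Rap and 0.79 ± 0.17 (SE, adjusted p = 0.0038) in +Rap+Man cells, but with total counts it was at 0.24 and 0.18 and not called. DOT6 rose (log2 fold change 0.38 ± 0.12, SE, adjusted p = 0.024) and TOD6 fell (log2 fold change -0.37 ± 0.12, SE, adjusted p = 0.028) in +Rap+Man cells. With total counts DOT6 was at -0.23 there and not called, while CRF1 stayed higher and RAP1, FHL1, IFH1, HMO1 and TOD6 stayed lower and SFP1 (-0.64) and STB3 (-0.99) were called lower as well, and in +Rap cells RAP1 (-0.47), FHL1 (-0.62), IFH1 (-0.59), STB3 (-0.56), TOD6 (-0.54) and DOT6 (-0.39) were then also called lower. These are RNA levels and say nothing of the proteins.

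Of 19 translation factors, 18 were tested in the Flo+ experiment, where HYP2 had 0 counts in all 6 libraries, against 47358 to 141617 raw counts in the Flo- libraries. Of the 18, 1 was higher and 7 lower in +Rap cells, where 22.8% of all genes were higher and 20.6% lower. In +Rap+Man cells 1 was higher and 6 were lower of all 19, where 25.4% of all genes were higher and 26.7% lower. With total counts 16 of the 18 were lower in +Rap cells and 16 of the 19 in +Rap+Man cells, and 1 was higher in each. Under that scaling 46.7% and 58.2% of all genes were lower and 14.8% and 14.3% higher. ANB1, the form of eIF5A made in low oxygen, was the gene that rose, by 6.84 ± 0.17 (SE, adjusted p = 4.4e-08) in +Rap and 7.16 ± 0.25 (SE, adjusted p = 2.4e-08) in +Rap+Man cells on the log2 scale. SUI2, GCD11, SUP35 and TIF4631 fell in both experiments, CDC33, SUI3 and SUP45 fell in +Rap cells, and TIF4632 and HYP2 fell in +Rap+Man cells. SUI2, a subunit of the factor that brings the initiator tRNA, had log2 fold changes of -0.65 ± 0.11 (SE, adjusted p = 0.0023) in +Rap and -0.72 ± 0.13 (SE, adjusted p = 0.0017) in +Rap+Man cells. TIF4632 was at -0.49 ± 0.14 (SE, adjusted p = 0.016) with and 0.09 ± 0.10 (SE, adjusted p = 0.47) without mannose, a difference of -0.61 ± 0.16 (SE, adjusted p = 0.025). With total counts TIF4632 was at -0.25 in +Rap cells, of opposite sign and not called. Over the list the median was -0.27 in the Flo+ and -0.22 in the Flo- experiment.

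Undepleted cells of the experiments were compared last. Of the 132 genes, 47 were higher and 26 lower in -Rap+Man than in -Rap cells, where 25.7% and 24.7% of all 6403 genes were, and 31 and 7 passed the stricter thresholds, where 11.0% and 10.6% of all genes did. The median log2 difference was 0.11, against 0.01 over all genes, with extremes of -1.66 for RPL31A and 9.71 for RPL39. Of the 57 pairs, 26 differed in the A to B ratio over the genome-wide set (53.5% of all pairs) and 31 over the named pairs (58.1%). RPS27A, for example, supplied 52.4%, 49.9% and 52.2% of the counts of its pair in -Rap+Man samples, against 17.9%, 15.3% and 12.2% in -Rap samples. Mannose, sequencing run and read type are the same split of the samples and cannot be told apart.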

How the data were processed

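RNA of 12 samples of the Cyc8-AA strain was depleted of ribosomal RNA and sequenced strand-specifically. The authors trimmed reads with fastp 0.20.0, aligned them to the S288c genome with STAR 2.7.3 and deposited a table of raw read counts per gene and a table of normalised counts, per the labels and the study's methods with DESeq2 among the tools. The counting tool and its strand setting are not given in the sources used here. The deposited table of normalised counts also holds columns of the authors' own comparisons, which were not used. The label gives mannose as 025M, read here as 0.25 M.

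The raw counts were used. They are written with digit separators, and with these removed every value was a whole number of at least 0. The test was limma 3.58.1 (R 4.3.3) on log2 normalised counts rather than a count model, a choice made because of the separators. A count model could have been run on the values and was not. Counts were scaled by TMM factors (trims of 30% and 5%) to the mean library size, 2 counts were added, and a gene was kept if 3 or more samples reached what 10 counts would be in a library of median size and all samples together held 15 or more. Adjustment (Benjamini-Hochberg) ran over every gene kept. The test of the copies of a pair was limma on the log2 ratio of the A to the B count within a sample. The script was tested on simulated data.

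The 132 members, the 3 lists and the tests were chosen with earlier results of these data known. Genes named are the 6 with the largest rise and the 6 with the largest fall among members called in each depletion comparison and in the difference in ratios, with RPL13A, RPL13B and the 5 pairs of largest change called in each depletion comparison and the pairs called in the difference. Others were named after their values were seen, and some items the rule names are not reported here. The methods state that cultures were divided but tie no sample number to a culture, and deviations from the group means of same-numbered samples had correlations of 0.143, 0.096 and 0.165 across genes in the Flo+ experiment and 0.439, 0.174 and 0.204 in the Flo- experiment. All passed 0.1 in the Flo- experiment alone. The main fits took no samples as pairs in either experiment, and the main calls and adjusted p values come from them. The fit with the number as a replicate block was an alternative and is given for part of the calls and counts. With the block, RPL9A had an adjusted p of 0.0023 by limma in +Rap+Man against -Rap+Man cells. Of 6775 genes, 6216 were found in the RefSeq annotation. The alternatives were other scalings, filters and added counts, the block, and each sample left out in turn.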

Additional observations from a re-analysis of the deposited data

Results flagged for a closer look

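The results here had a log2 change that differed between the experiments by the test of the difference itself, with mannose minus without, and run, read type, mannose and flocculation are the same split of the samples. Among the ribosomal protein genes they were RPL9B, with a difference of 1.06, RPL14A with 0.95, RPS28A with 0.89 and RPL2B with 0.77. Among the pairs, the A to B ratio of RPL9 differed by -0.95 and that of RPL40 by 0.38, the second over the named pairs alone. Among the genes of the lists, CRF1 differed by 2.25, RAP1 by -0.77 and TIF4632 by -0.61. No group has more than 3 samples, and therefore single samples were not tested for standing apart from their group.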

How the results depend on the processing

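Of the comparisons' counts and shares, 76 values under other settings stayed close to those given above and 18 moved. The members lower in +Rap cells were 121 with total counts as the scaling (46.7% of all genes). With median-ratio factors, with no filter and with the replicate block 1 was higher, where 1407 of all 6100, 1412 of all 6553 and 1492 of all 6100 genes were. In +Rap+Man cells 95 were lower and 0 higher with total counts (58.2% and 14.3% of all genes). There 18 were lower with TMM factors computed without the members and 17 with the replicate block, where 1857 and 2028 of all 6325 genes were. For the difference in ratios, 8 were higher with median-ratio factors and 10 with the replicate block, where 503 and 575 of all 6403 genes were. With total counts 1 was higher and 1 lower, where 4.53% and 16.9% of all genes were. Of the 36 ribosomal protein pairs with different proteins 10 changed in +Rap cells and 1 in the difference, where 12 and 1 of all 41 pairs tested did. Over the genome-wide set 1 of 57 changed in the difference, where 67 of all 480 pairs did. That set was added after the data were seen, as was leaving out the 9 members far higher in -Rap+Man cells. The share of counts differed by -5.99 points between +Rap and -Rap samples without the 10 most counted genes, and by -2.44 points, and by -1.47 points between +Rap+Man and -Rap+Man samples, without the genes that rose. With total counts RPL4B and RPS29B were at -0.027 and -0.11 in +Rap+Man cells and the difference of RPL13B at -0.10. With 1 sample left out, 41 to 95 members were lower and 0 to 1 higher in +Rap cells, 6 to 21 lower and 1 to 15 higher in +Rap+Man cells, and 0 to 7 higher in the difference. Pairs called ran from 9 to 27 in each depletion and from 2 to 6 in the difference, and the difference of RPL13A, which was not called, from -0.35 to 0.0011. With the replicate block 12 ribosomal protein pairs were called in +Rap cells, 18 in +Rap+Man cells and 3 in the difference, where 14, 18 and 3 of the 62 named pairs were. Between the undepleted cells 37 were called with the block, where 42 of the 62 named pairs were. In the Flo+ experiment every sample correlated best with that of its own number, and the replicate block gave 76 members lower, where 1287 of all 6100 genes were. The causes were not tested. DESeq2 was not run as an alternative. The replicates number 3 a group, and 2 members had under 100 raw counts in a sample.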
